A study of Mus musculus with 12 samples.

Results

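The 10 genes described here encode chaperones and folding enzymes of the endoplasmic reticulum (ER), together with the ER stress sensor IRE1α and its target transcription factor XBP1. They were chosen by symbol (Hspa5, Hsp90b1, Calr, Canx, Pdia3, Pdia4, Pdia6, Dnajb11, Xbp1 and Ern1), and all 10 were found among the 14089 genes of the count table and were tested. Transcripts were measured by RNA sequencing in islets isolated from C57BL/6J mice and cultured for 24 hours, with 3 libraries in each of 4 groups. The first group received a mixture of pro-inflammatory cytokines together with ML351 (the combination), the second the cytokine mixture alone, the third ML351 alone and the fourth vehicle. The cytokines were IL-1β (5 ng/ml), TNF-α (10 ng/ml) and IFN-γ (100 ng/ml). ML351, an inhibitor of 12/15-lipoxygenase, was given at 10 µM. All groups share strain, tissue and duration, and the labels name no allele, sex or age and do not state whether replicate libraries stem from different animals or cultures. P-values therefore measure only the spread between these libraries, which may be technical.

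Secretory proteins such as proinsulin fold in the ER, where BiP and other chaperones hold unfolded chains, lectin chaperones retain glycoproteins, and protein disulfide isomerases form disulfide bonds. When unfolded protein accumulates, the sensors IRE1α, ATF6 and PERK start the unfolded protein response. IRE1α then splices Xbp1 mRNA, and spliced XBP1 and cleaved ATF6 raise transcription of chaperone genes, in part through promoter elements called ER stress response elements. Beta cells make large amounts of proinsulin and depend on these genes, and ER stress is a known feature of islets exposed to inflammatory cytokines.

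Library totals ran from 20208286 to 27193026 counts, and the 10 genes together took 0.676% to 0.874% of a library. The smallest count of any of the 10 in a library was 1265, for Ern1, and the largest was 59104, for Hspa5, so counting error was small. The islet label was checked against hormone genes: Ins2 took 19.9% to 25.5% and Ins1 4.18% to 7.98% of the counts in every library. Gcg, the glucagon gene of alpha cells, had 631 to 1547 CPM (counts over the library total times its TMM factor, on the usual CPM scale) in the combination and 670 to 1284 CPM with cytokines, against 26690 to 38880 CPM with ML351 and 33880 to 37940 CPM with vehicle. With cytokines against vehicle, where 37.2% of all genes were called lower and 35.3% higher, 6 of 6 alpha, 8 of 10 beta, 3 of 3 delta, 2 of 2 PP and 6 of 6 endothelial cell markers fell. In the same comparison 4 of 6 tested ductal markers rose, and of 9 macrophage markers 5 rose and 1 fell. Lyz2, the most abundant macrophage marker, had 59.8 to 60.1 CPM with cytokines, against 83.0 to 85.7 CPM with vehicle. No listed alpha or beta cell marker stood at 0. In bulk islets, fewer cells of a type and less RNA per cell cannot be told apart, and this holds for each level below.

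Promoter sequences are shown for members whose windows hold an ER stress response element or a near form of it, because genes that share this element moved in opposite directions with cytokines or, as Hsp90b1, were not called. The windows were 300 bases long, from 250 before to 50 after the annotated start (RefSeq, GRCm38.p6), and all 10 members had one. The stretches below are printed in the direction of the gene with 10 bases on either side of the matches, and capitals mark the matched letters.
Hspa5, chr2:34771923-34772053, plus strand: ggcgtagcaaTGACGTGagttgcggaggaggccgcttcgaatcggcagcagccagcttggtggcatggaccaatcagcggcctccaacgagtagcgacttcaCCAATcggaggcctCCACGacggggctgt
Hsp90b1, chr10:86705523-86705666, minus strand: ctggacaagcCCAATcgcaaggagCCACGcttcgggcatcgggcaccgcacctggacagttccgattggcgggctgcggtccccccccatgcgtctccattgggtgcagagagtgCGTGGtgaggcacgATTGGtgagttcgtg
Calr, chr8:84847065-84847103, minus strand: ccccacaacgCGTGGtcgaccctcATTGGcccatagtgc
Canx, chr11:50325790-50325828, minus strand: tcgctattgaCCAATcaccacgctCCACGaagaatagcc
Pdia6, chr12:17266481-17266519, plus strand: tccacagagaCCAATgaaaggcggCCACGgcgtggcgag
Pdia4, chr6:47813592-47813629, minus strand: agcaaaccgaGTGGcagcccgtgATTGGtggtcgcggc
Pdia3, chr2:121413863-121413900, plus strand: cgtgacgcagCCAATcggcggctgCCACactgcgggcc
Dnajb11, chr16:22857842-22857872, plus strand: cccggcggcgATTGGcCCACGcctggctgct

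The element searched was CCAAT, then any 9 bases, then CCACG, on either strand. It was found in 5 of the 10 members (Hspa5, Hsp90b1, Calr, Canx and Pdia6) and in 39 of all 32851 promoter windows, which is 0.119%. With the last base left free (CCAAT, 9 bases, CCAC), Pdia3 and Pdia4 also matched, making 7 of 10 members, and 0.365% of all windows did. Pdia4 and Calr carry the element on the opposite strand, so its reverse complement is in capitals. Hsp90b1 holds 2 exact elements, the first as searched and the other as its reverse complement. Dnajb11 held a related element (ATTGG, any 1 base, then CCACG), which contains a CCAAT box read backwards and was found in 0.0365% of windows. A core motif bound by XBP1 and ATF6, TGACGTG, was found in Hspa5 and in 2.01% of windows. The CCAAT box by itself, which is part of the longer elements, was found in 8 members and in 37.4% of windows. None of the 5 patterns matched in the windows of Xbp1 and Ern1. A match is a description of the letters and no evidence of binding.

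**Figure D1:**
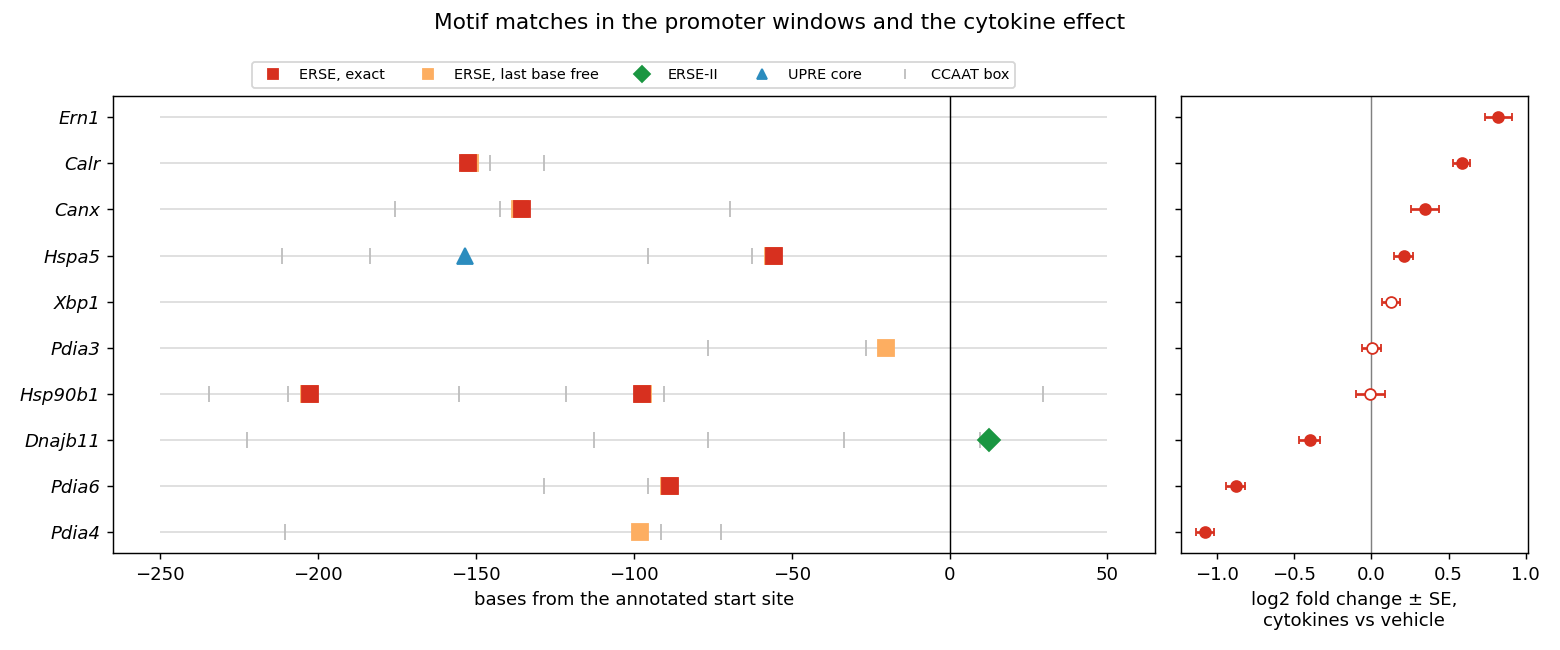
Motif matches in the 10 promoter windows (left; x axis, bases from the annotated start, in the direction of the gene) and the log2 fold change of the same genes with cytokines against vehicle (right; points with SE, filled where the adjusted p was under 0.05). Exact elements lie in Calr, Canx and Hspa5, which rose, in Pdia6, which fell by 0.88, and in Hsp90b1 at -0.01.

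Cytokines against vehicle asked how these genes respond to an inflammatory environment. The response split the group: Ern1, Calr, Canx and Hspa5 rose, Pdia4, Pdia6 and Dnajb11 fell, and Hsp90b1, Pdia3 and Xbp1 did not pass the test. The log2 fold changes of the 10 genes ran from -1.08 to 0.82, with a median of 0.07, against a median of -0.02 over all genes. The 4 rises of 10 stand against 35.3% of all 14089 genes called higher, and the 3 falls against 37.2% called lower, so the number of calls was close to the background. Cytokine and vehicle libraries did not overlap for 8 of the 10 genes, against 76.6% of all genes. Calls were made with the quasi-likelihood test of edgeR at a Benjamini-Hochberg adjusted p of 0.05 over all genes.

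**Figure D2:**
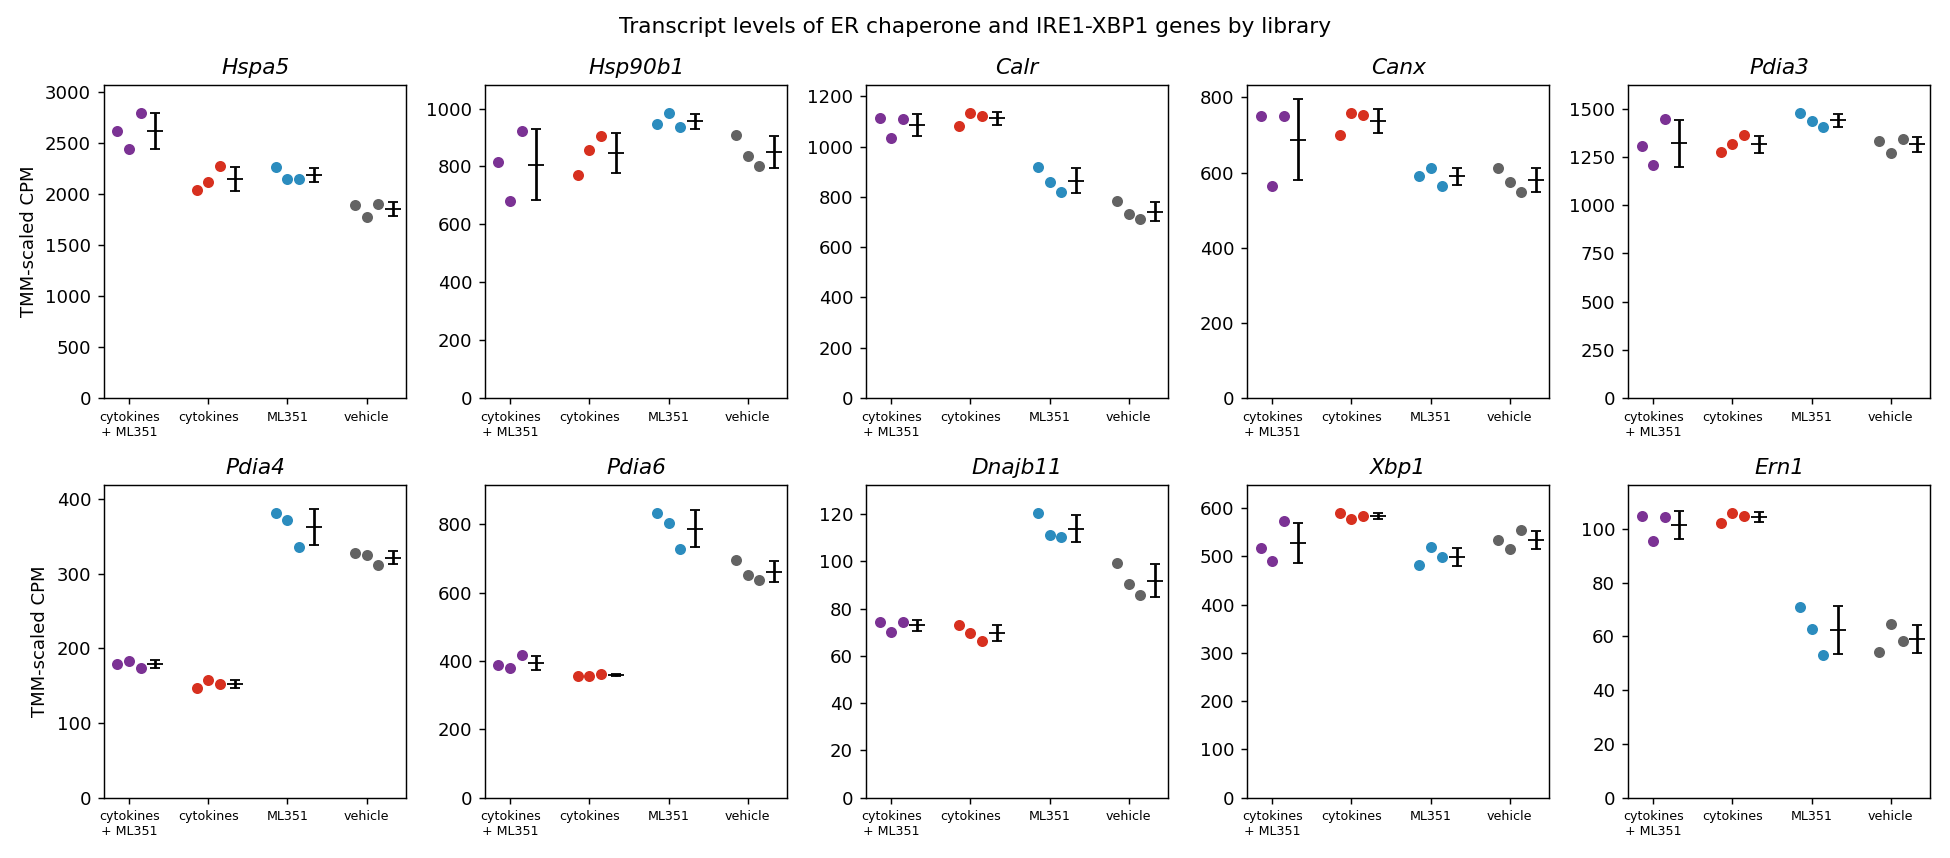
TMM-scaled CPM of the 10 genes in each library (y axis from 0) for the combination, cytokines, ML351 and vehicle, with the group mean and SD (n = 3) in black. Pdia4 and Pdia6 show 2 separate levels by cytokine treatment, and Hspa5 is highest in the combination, at 2448 to 2793 CPM.

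Pdia4 (chromosome 6, 47796141 to 47813430, minus strand, GRCm38) encodes a disulfide isomerase with several thioredoxin-like domains. It had 147, 158 and 152 CPM with cytokines, against 328, 326 and 311 CPM with vehicle. All 3 cytokine libraries lay far below every vehicle library. Pdia4 fell by 1.08 on the log2 scale (SE 0.0578, edgeR adjusted p = 2.35e-11), the largest change among the 10 genes. Per kb of exon its mean level was 63.5 ± 2.17 CPM per kb with cytokines and 134 ± 3.75 CPM per kb with vehicle (SD, n = 3 each). Its rank among 13563 genes with an annotated length was 619 with cytokines, against 144 with vehicle. Ranks also depend on the other genes: Hspa5 and Calr, which rose, ranked lower with cytokines too (42 against 26, and 59 against 53). Of the 10 genes only Ern1 ranked higher.

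Pdia6 (chromosome 12, 17266545 to 17284770, plus strand) encodes another disulfide isomerase, which also acts on IRE1α and limits its activity. The cytokine libraries held 357, 357 and 363 CPM, against 696, 651 and 636 CPM with vehicle. The groups did not overlap, and the cytokine libraries lay close together. Pdia6 fell by 0.88 (SE 0.0604, edgeR adjusted p = 6.26e-10), and its rank per kb was 362 with cytokines and 96 with vehicle.

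Dnajb11 (chromosome 16, 22857845 to 22879634, plus strand) encodes an ER member of the DnaJ family that delivers unfolded chains to BiP. It was measured at 72.9, 69.8 and 66.2 CPM with cytokines and at 99.5, 90.4 and 85.7 CPM with vehicle. The groups did not overlap. Dnajb11 fell by 0.40 (SE 0.0667, edgeR adjusted p = 3.96e-05).

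The genes of the lectin chaperones rose. Calr (chromosome 8, 84841850 to 84846934, minus strand), whose product calreticulin is soluble in the ER lumen and also takes part in loading MHC class I molecules, had 1083, 1132 and 1121 CPM with cytokines, against 782, 731 and 711 CPM with vehicle. All cytokine libraries lay above all vehicle libraries. The log2 fold change of Calr was 0.58 (SE 0.0576, edgeR adjusted p = 7.23e-08). Canx (chromosome 11, 50293961 to 50325673, minus strand), whose product calnexin is anchored in the membrane, had 701, 757 and 753 CPM with cytokines, against 613, 576 and 549 CPM with vehicle. The Canx groups did not overlap either (0.35, SE 0.089, edgeR adjusted p = 0.00264).

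Hspa5 (chromosome 2, 34771970 to 34777547, plus strand) encodes BiP, the ER Hsp70 that binds unfolded chains and keeps the stress sensors inactive. It had 2041, 2124 and 2273 CPM with cytokines, against 1893, 1777 and 1900 CPM with vehicle. The groups were separate, but the gap between the lowest cytokine library and the highest vehicle library was small next to the level. Hspa5 rose by 0.21 (SE 0.0608, edgeR adjusted p = 0.00543), the smallest called change of the 7, and was the most abundant of the 10 per kb in every group, with 507 ± 27.8 CPM per kb with cytokines and 439 ± 16.4 CPM per kb with vehicle (SD, n = 3 each).

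Hsp90b1 (chromosome 10, 86690209 to 86705509, minus strand) encodes the ER Hsp90, and Pdia3 (chromosome 2, 121413775 to 121438687, plus strand) encodes the disulfide isomerase that works with the lectin chaperones. Hsp90b1 had 770, 858 and 907 CPM with cytokines, against 909, 836 and 801 CPM with vehicle. Pdia3 had 1274, 1315 and 1363 CPM with cytokines, against 1333, 1272 and 1342 CPM with vehicle. In both genes the groups overlapped. The 95% interval of the log2 fold change ran from -0.21 to 0.19 for Hsp90b1 (edgeR adjusted p = 0.953) and from -0.13 to 0.13 for Pdia3 (edgeR adjusted p = 0.974), which leaves out a change of the size seen for Calr or Pdia4. Since the libraries carry no strand, reads cannot be assigned between Hsp90b1 and 1810014B01Rik, which lies on the opposite strand and shares 415 exonic bases with it. The shared stretch was 18 bases for Pdia3 with Catsper2 and 50 bases for Pdia6 with Atp6v1c2.

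In the IRE1 pair the sensor changed more than its target. Ern1 (chromosome 11, 106394650 to 106487852, minus strand), which encodes IRE1α, had 102, 106 and 105 CPM with cytokines, against 54.1, 64.6 and 58.2 CPM with vehicle. The cytokine libraries were all far above the vehicle libraries, and the log2 fold change was 0.82 (SE 0.0891, edgeR adjusted p = 2.86e-07), the largest rise of the 10. Ern1 was also the least abundant of the 10 per kb, with 12.8 ± 0.234 CPM per kb with cytokines and 7.22 ± 0.644 CPM per kb with vehicle (SD, n = 3 each). Xbp1 (chromosome 11, 5520659 to 5525893, plus strand) had 590, 578 and 584 CPM with cytokines, against 533, 515 and 554 CPM with vehicle. The Xbp1 groups did not overlap, but the change of 0.13 (SE 0.0586) missed the threshold with an edgeR adjusted p of 0.058. It passed in 7 of 22 alternative analyses, with adjusted p-values from 0.00631 to 0.238 over all of them. Among these were the fits without ML351 replicate 1 (0.0319) and without combination replicates 1 (0.0393), 2 (0.0364) or 4 (0.0115). Counts per gene do not separate spliced from unspliced Xbp1 mRNA, so IRE1α activity is not measured here.

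The combination against ML351 asked the same question with the inhibitor present in both groups, in 6 libraries that share none with the comparison above. All 7 genes called with cytokines against vehicle were called in the same direction, and Hsp90b1 was called lower in addition. Of all 14089 genes, 10209 were called with cytokines against vehicle and 10079 in this comparison. Agreement in direction was not counted over all genes, so it cannot be called particular to these genes. The 4 rises and 4 falls stand against 35.2% of all genes called higher and 36.4% called lower. Pdia4 had 180, 184 and 173 CPM in the combination, against 381, 372 and 335 CPM with ML351. Pdia6 had 387, 378 and 417 CPM in the combination, against 832, 803 and 727 CPM with ML351. Both genes were lower in every combination library, by -1.02 (SE 0.0576, edgeR adjusted p = 5.05e-11) for Pdia4 and by -0.998 (SE 0.0605, edgeR adjusted p = 1.29e-10) for Pdia6.

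Dnajb11 fell to 74.5, 70.3 and 74.2 CPM in the combination, against 120, 111 and 110.1 CPM with ML351 (-0.64, SE 0.0665, edgeR adjusted p = 1.47e-07). Ern1 had 105, 95.4 and 104 CPM in the combination, against 70.9, 62.9 and 53.0 CPM with ML351 (0.70, SE 0.0886, edgeR adjusted p = 1.86e-06). Neither gene overlapped between the groups. Calr had 1112, 1036 and 1109 CPM in the combination, against 917, 860 and 818 CPM with ML351, a smaller rise of 0.33 (SE 0.0574, edgeR adjusted p = 6.83e-05). Hspa5 had 2619, 2448 and 2793 CPM in the combination, against 2268, 2153 and 2152 CPM with ML351. For Hspa5 and Calr, too, the groups did not overlap, and Hspa5 rose by 0.26 (SE 0.0608, edgeR adjusted p = 0.00111).

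Canx and Hsp90b1 were called less firmly in this comparison. Canx had 750.1, 564 and 749 CPM in the combination, against 592, 612 and 565 CPM with ML351 (0.22, SE 0.0889, edgeR adjusted p = 0.0357). Hsp90b1 had 814, 679 and 924 CPM in the combination, against 946, 983 and 937 CPM with ML351 (-0.25, SE 0.0927, edgeR adjusted p = 0.0277). Combination replicate 2 was the lowest of its group in both genes, below every ML351 library for Canx. The call for Canx ended in 9 of 22 alternatives, with adjusted p-values of up to 0.224. It ended with library totals in place of TMM (0.115), with only the groups compared (0.074), with the summed level of acinar cell markers as a covariate (0.224), and without ML351 replicates 1 (0.0656) or 3 (0.113) or combination replicates 1 (0.144) or 4 (0.143). The call for Hsp90b1 ended without ML351 replicates 1 (0.063), 2 (0.0834) or 3 (0.0514) or combination replicates 1 (0.0574) or 2 (0.138). Pdia3 (-0.13, edgeR adjusted p = 0.0782) and Xbp1 (0.08, edgeR adjusted p = 0.247) were not called, and Pdia3 was called without combination replicate 4 (0.00634) and with library totals (0.00162).

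ML351 against vehicle isolated the inhibitor in islets free of added cytokines, where the differences in these genes were small. Of the 10 log2 fold changes 9 were above 0, with a median of 0.17 against 0.01 over all genes, and none passed the edgeR test. Of all 14089 genes 0.0355% were called. At an unadjusted p under 0.05 there were 6 members of 10 (Hspa5, Calr, Pdia3, Pdia4, Pdia6 and Dnajb11), against 8.98% of all genes. DESeq2, which also called more of all genes than edgeR, called Hspa5, Calr, Pdia6 and Dnajb11 (both counts are in the last section). ML351 and vehicle libraries did not overlap for 7 members, against 15.9% of all genes. Earlier results of these data, in which several of these genes were already seen higher with ML351, were known when the genes were chosen.

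Dnajb11 had 120, 111 and 110.1 CPM with ML351, against 99.5, 90.4 and 85.7 CPM with vehicle. All ML351 libraries were above all vehicle libraries, and the difference of 0.31 (SE 0.0658, edgeR adjusted p = 0.122) was the largest of the 10. Pdia6 followed with 832, 803 and 727 CPM with ML351, against 696, 651 and 636 CPM with vehicle (0.25, SE 0.0598, edgeR adjusted p = 0.165). Hspa5 had 2268, 2153 and 2152 CPM with ML351, against 1893, 1777 and 1900 CPM with vehicle (0.24, SE 0.0608, edgeR adjusted p = 0.181). Neither overlapped between groups.

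The remaining ML351 differences were smaller. Calr had 917, 860 and 818 CPM with ML351, against 782, 731 and 711 CPM with vehicle (0.22, SE 0.0574, edgeR adjusted p = 0.183). Pdia4 had 381, 372 and 335 CPM with ML351, against 328, 326 and 311 CPM with vehicle (0.17, SE 0.0567, edgeR adjusted p = 0.305). The ML351 libraries lay above the vehicle libraries in both genes. Hsp90b1 (0.17, edgeR adjusted p = 0.639) and Pdia3 (0.13, edgeR adjusted p = 0.552) also did not overlap, while Canx (0.02), Ern1 (0.08) and Xbp1 (-0.10) did.

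The combination against cytokines asked for the inhibitor effect when cytokines were present in both groups. Hspa5 alone among the 10 was called, with 2619, 2448 and 2793 CPM in the combination, against 2041, 2124 and 2273 CPM with cytokines. Every combination library exceeded every cytokine library, and the difference was 0.29 (SE 0.0608, edgeR adjusted p = 0.0314), where 1.43% of all genes were called. The call was lost in 8 of 22 alternative analyses, over which the adjusted p ran from 0.000589 to 0.193 and the difference from 0.22 to 0.34. It ended without vehicle replicate 1 (0.054), cytokine replicates 1 (0.118) or 3 (0.0951), or combination replicates 1 (0.0873) or 4 (0.069).

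RNA of acinar cells, the exocrine cells that secrete digestive enzymes and are rich in ER, moved with the same comparison. The summed level of 21 tested acinar markers was 1437, 1684 and 1142 CPM in the combination and 54.2, 688 and 992 CPM with cytokines, and it was 355, 404 and 212 CPM with ML351 and 795, 544 and 263 CPM with vehicle. All combination libraries were the highest, and all 21 markers had a positive difference against cytokines, with 1 called, against 1.43% of all genes. Its 2 most abundant markers were Prss2, at 184 to 295 CPM in the combination and 6.69 to 144 CPM with cytokines, and Cela1, at 185 to 256 CPM in the combination and 8.26 to 157 CPM with cytokines. With the summed acinar level as a covariate the Hspa5 difference was 0.25 and the adjusted p 0.193. In ML351 against vehicle 1 of the 21 acinar markers had a positive difference (median -1.12), with overlapping sums, and edgeR called none, with 1 at an unadjusted p under 0.05. In the combination against ML351 13 of the 21 were called higher and 1 lower (median 2.71), against 35.2% and 36.4% of all genes. Since the acinar level was itself higher in every combination library than in every cytokine library, the covariate fit cannot fully separate it from ML351. The part of acinar RNA in the Hspa5 difference was not tested otherwise.

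Markers of other cell types moved with the combination against cytokines as well, where 1.43% of all genes were called. Of 6 endothelial markers 3 were called lower (median -0.82), with sums of 8.52 to 12.1 CPM in the combination and 14.2 to 19.5 CPM with cytokines. Of 9 macrophage markers 2 were called lower (median -0.25), of 6 ductal markers 1 was called lower (median 0.20), and of 3 delta cell markers 1 was called higher (median 0.57). Their part in the results for these genes was not tested.

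Pdia4 had 180, 184 and 173 CPM in the combination, against 147, 158 and 152 CPM with cytokines. The groups did not overlap, and the difference of 0.23 (SE 0.0576) had an edgeR adjusted p of 0.0547. Pdia4 was called without ML351 replicate 3 (0.0343) and by DESeq2 (0.00955). Pdia6 had 387, 378 and 417 CPM in the combination, against 357, 357 and 363 CPM with cytokines (0.13, SE 0.0602, edgeR adjusted p = 0.287). For both enzymes the level with ML351 and cytokines remained well under that of the vehicle libraries.

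Xbp1 had 517, 491 and 573 CPM in the combination, against 590, 578 and 584 CPM with cytokines. The groups were separate, with the combination lower by -0.15 (SE 0.0586, edgeR adjusted p = 0.227), and the call was made without combination replicate 4 (0.0478). At an unadjusted p under 0.05 there were 4 members of 10 (Hspa5, Pdia4, Pdia6 and Xbp1), against 15.7% of all genes. The same 4 did not overlap between the groups, against 20.4% of all genes. As with ML351 against vehicle, earlier results of these data were known when the genes were chosen. Differences of the other genes lay between -0.10 (Canx) and 0.07 (Dnajb11), and the 95% interval for Calr ran from -0.16 to 0.09.

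Averaged over both backgrounds, with 6 libraries against 6, Hspa5, Pdia4 and Pdia6 were called higher with ML351 by edgeR, where 1.55% of all genes were called. The average change was 0.26 for Hspa5 (SE 0.043, edgeR adjusted p = 0.00844), 0.20 for Pdia4 (SE 0.0404, adjusted p = 0.0242) and 0.19 for Pdia6 (SE 0.0424, adjusted p = 0.0362). Macrophage markers moved with ML351 in the same contrast, with 4 of 9 called lower, 8 of 9 at an unadjusted p under 0.05 and a median of -0.42. Their summed level was 287 to 301 CPM in the combination against 319 to 344 CPM with cytokines, and 162 to 183 CPM with ML351 against 218 to 222 CPM with vehicle, so the groups did not overlap in either background. Of the delta cell and acinar markers 1 each was called higher. The part of these cells in the results was not tested. Hspa5 stood at rank 20 of all genes by p. Its call was kept in 20 of 21 alternatives and ended when ML351 replicate 1 and cytokine replicate 1 were both left out (0.0561). That alternative was chosen after seeing the data. The call of Pdia4 ended in 10 of 21 alternatives and that of Pdia6 in 13 of 21, with adjusted p-values of up to 0.115 and 0.142. Leaving out any 1 of the vehicle libraries ended both calls, with adjusted p-values from 0.0562 to 0.0667 for Pdia4 and from 0.0562 to 0.0915 for Pdia6. So did leaving out ML351 replicate 1 (0.0613 for Pdia4 and 0.0881 for Pdia6), cytokine replicate 1 (0.0609 and 0.0752) or 4 (0.0539 and 0.0633), or combination replicate 1 (0.0527 and 0.0667). Pdia6 also lost its call without ML351 replicate 2 (0.0571), cytokine replicate 3 (0.0729) or combination replicate 4 (0.0573).

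Dnajb11 (0.19, edgeR adjusted p = 0.055), Xbp1 (-0.12, 0.135) and Calr (0.09, 0.251) completed the 6 members with an unadjusted p under 0.05 in the average, against 16.9% of all genes. Because the genes were chosen with earlier ML351 results of these data known, this share is not independent of the choice. Xbp1 was called lower without combination replicate 4 (0.0319). With library totals in place of TMM the median over all genes moved by up to 0.06 in the ML351 comparisons, and the share of higher genes among those called in the average was 85.4% in place of 43.1%. With DESeq2's size factors that share was 30.8%, and in the combination against cytokines it was 71.8% with totals and 33.3% with DESeq2's size factors, against 45% with TMM. Among the 5 genes called in ML351 against vehicle 40% were higher, against 85.7% with totals. Hspa5, Pdia4 and Pdia6 were higher under each of these scalings.

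Whether the ML351 effect differed between the backgrounds was tested as an interaction. No member was called by edgeR, where 0.0071% of all genes were. At an unadjusted p under 0.05 there were 2 members of 10, against 8.23% of all genes. These were Calr, with a difference of -0.26 between the ML351 effects with and without cytokines (SE 0.0812, edgeR adjusted p = 0.383), and Dnajb11, with -0.24 (SE 0.094, edgeR adjusted p = 0.515). DESeq2 called Calr (adjusted p = 0.0488). For Hspa5 the interaction was 0.05, with a 95% interval from -0.13 to 0.23, and for Pdia4 it was 0.06, with an interval from -0.11 to 0.23.

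**Figure D3:**
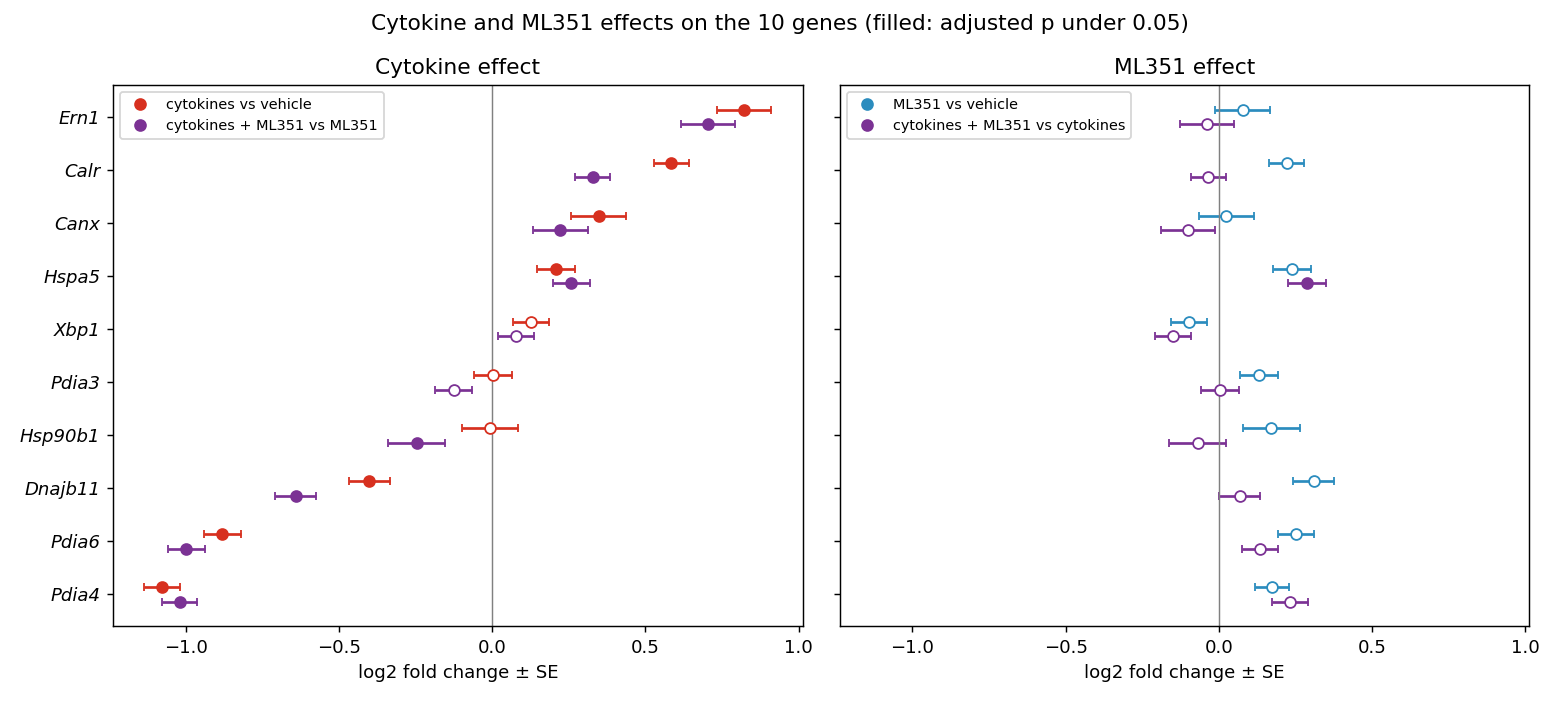
Log2 fold changes with SE of the 10 genes for the cytokine effect (left: cytokines against vehicle in red, combination against ML351 in purple) and the ML351 effect (right: ML351 against vehicle in blue, combination against cytokines in purple), on a shared x axis, filled where the adjusted p was under 0.05. Cytokine effects ran from -1.08 to 0.82 and ML351 effects from -0.15 to 0.31.

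Set against each other, the cytokine and ML351 effects without the other agent differed in 7 of the 10 genes. Since both comparisons use the same vehicle libraries, the test of their difference is cytokines against ML351, in which 71.6% of all genes were called. The cytokine effect was more positive for Ern1 (difference 0.74), Calr (0.36), Canx (0.32) and Xbp1 (0.23). It was more negative for Pdia4 (-1.25), Pdia6 (-1.13) and Dnajb11 (-0.71). The call for Xbp1 (edgeR adjusted p = 0.00237) ended with library totals in place of TMM (0.0776), a scaling that moved the median of all genes by -0.13 in this comparison.

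For Hspa5 no difference between the effects was called. The difference of cytokines minus ML351 was -0.03 (SE 0.0608, 95% interval -0.16 to 0.10, edgeR adjusted p = 0.671), with 2041, 2124 and 2273 CPM with cytokines against 2268, 2153 and 2152 CPM with ML351. The libraries of these groups overlapped. With library totals alone the difference was -0.16 and was called (adjusted p = 0.00916). Hsp90b1 (-0.18, edgeR adjusted p = 0.0997) and Pdia3 (-0.13, 0.0709) were not called. Hsp90b1 was called without combination replicate 2 (0.0292), with library totals (0.00154) and with only the groups compared (0.044), and Pdia3 with library totals (0.000243).

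Ordered by their level per kb of exon with cytokines, the genes ran Hspa5 (507 ± 27.8 CPM per kb), Pdia3 (420 ± 14.1), Calr (386 ± 8.94), Hsp90b1 (210 ± 17.1), Xbp1 (180 ± 1.72), Canx (157 ± 6.72), Pdia6 (95.8 ± 0.95), Pdia4 (63.5 ± 2.17), Dnajb11 (21.5 ± 1.04) and Ern1 (12.8 ± 0.234; SD, n = 3 each). No neighbours in this order shared a range of library values. With vehicle the order was Hspa5 (439 ± 16.4 CPM per kb), Pdia3 (419 ± 12.1), Calr (257 ± 12.8), Hsp90b1 (211 ± 13.6), Pdia6 (176 ± 8.36), Xbp1 (164 ± 5.91), Pdia4 (134 ± 3.75), Canx (124 ± 6.86), Dnajb11 (28.4 ± 2.18) and Ern1 (7.22 ± 0.644). There the libraries of Hspa5 and Pdia3, of Pdia6 and Xbp1, and of Pdia4 and Canx overlapped, so that their order is not firm. Pdia6 and Pdia4 thus stood below Xbp1 and Canx with cytokines and in their midst with vehicle. The summed level of the 10 genes was 7794 ± 609 CPM in the combination, 7426 ± 276 CPM with cytokines, 7867 ± 245 CPM with ML351 and 7009 ± 208 CPM with vehicle (SD, n = 3 each).

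Genes were ranked by how closely their profile over the 12 libraries followed that of Hspa5, as the root mean square difference of centred log2 CPM among 9101 genes with a mean of at least 3. The 8 nearest were Herc4 (0.0777), Trmt6 (0.0819), Myo1e (0.0823), Cdc40 (0.0855), Map4k5 (0.0855), Abhd6 (0.0856), Spire1 (0.0914) and Sirt1 (0.0922). None of them belongs to the chaperone lists. The nearest of the other 9 members was Calr, at 0.168 and rank 809, and the farthest was Pdia4, at 0.645 and rank 7325. The distances describe these libraries and carry no test.

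Other genes of the same processes were read from lists. Of 37 other ER folding genes 22 fell and 6 rose with cytokines against vehicle, where 37.2% of all genes were called lower and 35.3% higher. Their median log2 fold change was -0.49, against -0.02 over all genes. The smallest p-values belonged to falls, in the oxidase gene Ero1lb (-2.21), Txndc5 (-1.45), the glycoprotein sensor Uggt2 (-2.91), Hspa13 (-1.30) and Pdia5 (-1.71), all with edgeR adjusted p-values of at most 8.52e-11. Ero1lb, which encodes an oxidase that recharges disulfide isomerases and is abundant in beta cells, had 302, 318 and 321 CPM with cytokines, against 1435, 1367 and 1543 CPM with vehicle. Ero1l of the same list rose by 1.79 (edgeR adjusted p = 1.89e-08). It had 322, 366 and 380 CPM with cytokines, against 101, 117 and 91.7 CPM with vehicle. In the list of ER-associated degradation, the route by which misfolded proteins leave the ER, 12 of 27 genes rose and 9 fell (median 0.14), shares near the 35.3% and 37.2% of all genes. Among the Edem genes, whose products mark glycoproteins for this route, Edem1 rose (1.31) and Edem2 (-1.85) and Edem3 (-1.13) fell, while Derl1 (0.89) and Ngly1 (0.95) rose.

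Partners of the sensors moved as follows with cytokines against vehicle. Of 8 other tested genes of the IRE1 branch 5 rose and 2 fell (median 0.81), against 35.3% of all genes called higher and 37.2% called lower. Traf2, an adaptor that binds active IRE1α, rose by 1.99, Rtcb, the ligase that joins the Xbp1 exons, by 1.01, Ptpn1 by 1.25 and Tmbim6, an inhibitor of IRE1α, by 0.81, while the phosphatase gene Ppm1l fell by 1.12. Of 7 transcripts known as targets of IRE1-dependent decay 3 rose and 3 fell, namely Hgsnat (0.34), Pmp22 (1.35) and Bloc1s1 (0.29) against Col6a1 (-3.05), Pdgfrb (-0.86) and Sparc (-1.17). The Bloc1s1 call was near the threshold (edgeR adjusted p = 0.0478) and was not kept in every alternative, where 2 to 3 rises were called. Those of Hgsnat and Pmp22 were kept in all 22. Without vehicle replicate 2 or cytokine replicate 3 only 1 of the 3 falls was called: Pdgfrb had adjusted p-values of 0.0602 and 0.0629 there and Sparc of 0.0819 and 0.0721, and Sparc lost its call without cytokine replicate 1 too (0.0834). Col6a1, Pdgfrb and Sparc are also expressed by stromal cells, and 6 of 8 fibroblast and stellate markers (Pdgfrb among the 8) fell in the same comparison, with summed levels of 44.9 to 72.0 CPM with cytokines and 108 to 342 CPM with vehicle. The part of these cells in the result was not tested.

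In the ATF6 list 4 of 10 genes rose and 5 fell (median -0.22), near the 35.3% of all genes called higher and 37.2% called lower. In this list 3 falls were called without vehicle replicate 1, vehicle replicate 2 or cytokine replicate 4. Atf6 itself (0.71), Creb3 (1.84) and the protease gene Mbtps2 (1.32) rose, and Atf6b (-0.92) and Mbtps1 (-1.35), which encodes the other protease that activates ATF6, fell. In the PERK list 11 of 12 rose and 1 fell (median 1.02), including Atf4 (0.97), Cebpb (1.97), Ddit3 (4.69), Trib3 (3.19) and Ppp1r15a (3.24). Of 15 chaperone genes of the cytosol and mitochondria 14 rose and 0 fell (median 1.40). Hspa8, the constitutive cytosolic Hsp70, had 3483, 4063 and 3936 CPM with cytokines, against 591, 596 and 626 CPM with vehicle (2.66, edgeR adjusted p = 1.63e-14). The others with the smallest p-values were Hsp90ab1 (1.97), Hsp90aa1 (2.01), Hspa9 (1.80) and Trap1 (1.30).

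**Figure D4:**
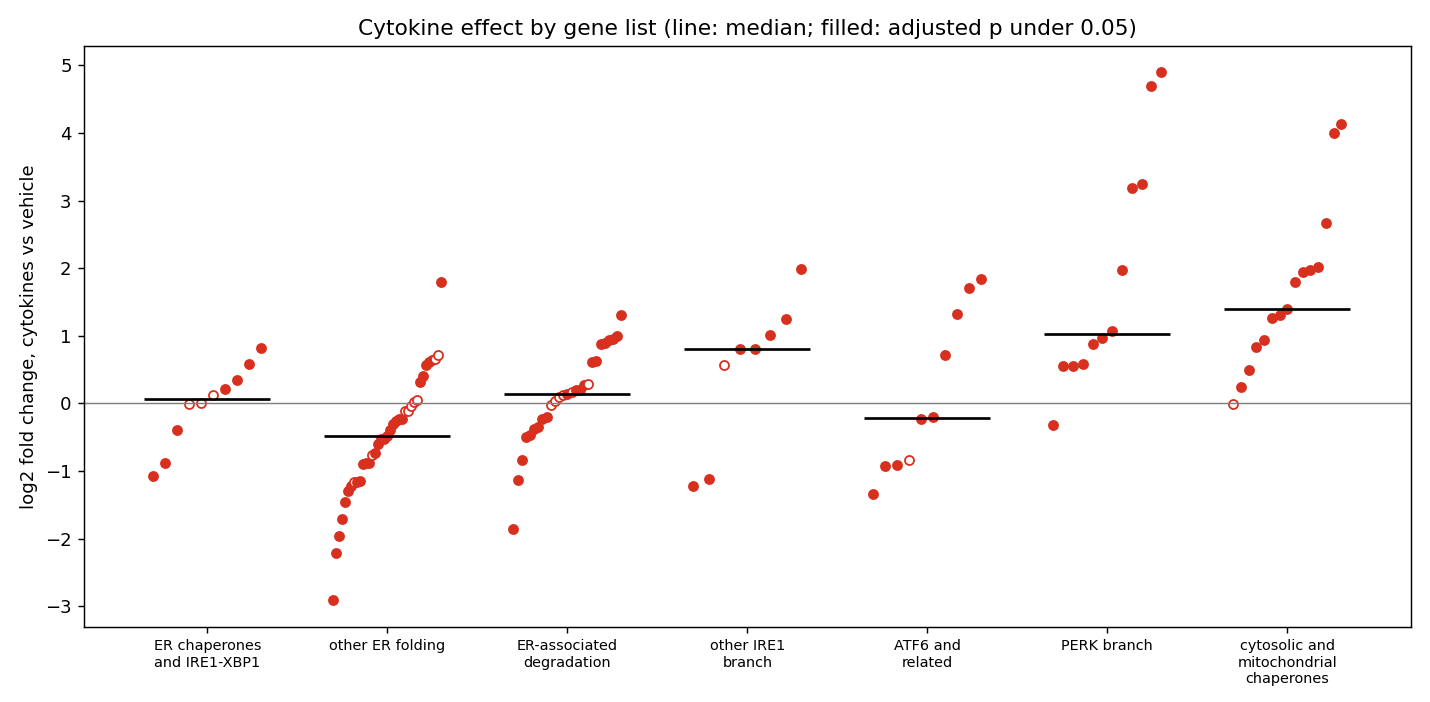
Log2 fold change with cytokines against vehicle for each tested gene of 7 lists, with points filled where the adjusted p was under 0.05 and the median as a line. The ER folding genes outside the 10 have a median of -0.49, the cytosolic and mitochondrial chaperones one of 1.40.

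In the average over both backgrounds ML351 calls in these lists were 1 of 37 other ER folding genes and 2 of 27 degradation genes. Of all genes 1.55% were called. Over the alternatives the first count ran from 0 to 5 and the second from 1 to 3. With library totals 6 cytosolic and mitochondrial chaperones were called higher. Edem3 (0.30, SE 0.0448, edgeR adjusted p = 0.0061), Edem2 (0.20, SE 0.0425, adjusted p = 0.0316) and Hspa13 (0.19, SE 0.0414, adjusted p = 0.0362) were called higher, and no gene of the ER, stress sensor and chaperone lists was called lower. Hspa13, an Hsp70 relative attached to ER membranes, had 58.4, 55.7 and 59.6 CPM in the combination, against 48.5, 49.5 and 48.0 CPM with cytokines. It had 129, 129 and 134 CPM with ML351, against 127, 113 and 118 CPM with vehicle, so the groups were separate in both backgrounds. The Hspa13 call ended in 11 of 21 alternatives and that of Edem2 in 13 of 21, with adjusted p-values of up to 0.107 and 0.103, and the Edem3 call was kept in all 21. The next in their lists were Creld2 (0.20, edgeR adjusted p = 0.058), Mogs (0.24, 0.0984) and Vimp (0.15, 0.0852), with Ptpn1 at -0.17 (0.0914). Median differences were 0.08 for the other ER folding genes, 0.08 for the PERK list and 0.10 for the cytosolic and mitochondrial chaperones, against 0.01 over all genes. For the other lists they were 0.02 (degradation), 0.03 (ATF6), -0.03 (targets of IRE1-dependent decay) and -0.099 (other IRE1 branch). Of the 8 tested IRE1 branch genes 2 had a positive difference. In that list 4 had an unadjusted edgeR p under 0.05, against 16.9% of all genes.

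Of the 37 genes whose promoter window held the exact ER stress response element, 18 were in the count table, 13 of them outside the 10 members. With cytokines against vehicle 2 of these 13 rose and 6 fell (median -0.22), against 35.3% of all genes called higher and 37.2% called lower. The members with the exact element had 3 rises (Calr, Canx and Hspa5), 1 fall (Pdia6) and 1 gene that was not called (Hsp90b1).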

How the data were processed

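The authors deposited raw read counts by gene symbol, whole numbers in 1 column for each of 12 libraries. The labels' protocols name the SMARTSeq v4 kit and unstranded libraries. Versions and settings are absent from the submitters' processing notes, which list STAR, featureCounts, Subread, FastQC, DESeq2 and the build mm10.

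From the counts, edgeR's quasi-likelihood test (version 4.0.16, R 4.3.3, robust, TMM, filterByExpr, which removed no gene) was fitted to all 12 libraries with a mean per group. Benjamini-Hochberg adjustment ran over 14089 genes within each of 7 contrasts, with calls at 0.05. Each SE is |log2 fold change| over the root of the F statistic. No pair of libraries in a group agreed within sampling noise (chi-square per gene 4.16 to 21.7). The procedure was tested on simulated counts. Exon lengths and coordinates came from GENCODE M21 (GRCm38, the assembly of mm10; 13563 symbols with a length), promoters from RefSeq.

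Named were the 10 members in every contrast, from each gene list up to 5 genes with the smallest p with cytokines against vehicle and up to 3 in the averaged ML351 contrast, and the 8 genes closest to Hspa5. Bloc1s1 and Ero1l were added after their values were seen. Members and lists were chosen with earlier results of these data known. DESeq2 1.42.0, other scalings and filters, an acinar covariate, a block by replicate number and leaving out libraries were tried as alternatives.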

Additional observations from a re-analysis of the deposited data

How the results depend on the processing

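Of 70 results for members (10 genes in 7 contrasts), 49 kept their call under all of up to 22 alternatives and 21 did not in at least 1. No result reversed while called. The 7 cytokine calls against vehicle held in all 22.

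Genes called varied more. In the combination against cytokines (202 genes) the count was 78 with library totals, 527 with DESeq2, 59 with the groups compared only, 7 with the acinar covariate, 76 without ML351 replicate 1 and cytokine replicate 1, and 54 to 236 with 1 library left out. Members called higher there (1) were 2 with DESeq2, and 0 with the groups compared only, with the acinar covariate and without both of those libraries. With 1 library left out they were 0 to 2, with 0 to 1 called lower. In the average of ML351 (218 genes) the count was 398 with totals, 577 with DESeq2, 63 with the acinar covariate, 43 without both libraries and 52 to 270 with 1 left out. Members higher (3) were 1 with the acinar covariate, 0 without both and 1 to 3 with 1 left out, and members lower (0) were 1 with DESeq2 and 0 to 1 with 1 left out.

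In ML351 against vehicle (5 genes) the count was 0 with DESeq2's size factors, without Ins1 and Ins2, with the acinar covariate and without both libraries, 110 with DESeq2, 16 with the groups compared only and 0 to 17 with 1 left out. Members higher (0) were 1 with totals and 4 with DESeq2. In the interaction (1 gene) it was 58 with DESeq2, 0 with totals, with the acinar covariate and without both, and 0 to 1 with 1 left out. Members lower there were 1 with DESeq2. Members lower in cytokines against ML351 (3) were 6 with totals. The cause was not tested for any of these, except that fits with fewer libraries have fewer degrees of freedom.

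The main fit did not pair samples by replicate number. Deviations from the group means of same-numbered libraries correlated at -0.41 to 0.28, over 0.1 in 4 of 13 pairs. Those of 41 differently numbered pairs correlated at -0.29 to 0.43. These ranges show no sign of pairing, but deviations from means of 3 libraries cannot exclude it. With the replicate block, 53 genes were called in the combination against cytokines, 88 in the average, 0 in ML351 against vehicle and 0 in the interaction, and members higher in the average were 1. Under the block Canx lost its call in the combination against ML351 (0.115), and Pdia3 was called lower there (0.0233) and in cytokines against ML351 (0.0134). The groups-only fit could not be made for the average and the interaction. Depth limits none of the 10 genes. The alternatives without both libraries and for the lists were chosen after seeing the data.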
